A study of Mus musculus with 6 samples.

Results

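The NF-κB transcription factors are built from 5 subunits, and their activity is held in check by a set of inhibitor proteins. The 10 genes described here are the subunit genes Nfkb1, Nfkb2, Rel, Rela and Relb, the IκB family genes Nfkbia, Nfkbib, Nfkbie and Nfkbiz, and Tnfaip3, which encodes the ubiquitin-editing enzyme A20. The IκB family genes and Tnfaip3 are grouped as inhibitor genes here, although the product of Nfkbiz also acts as a cofactor. They were chosen by symbol, and all 10 were found among the 15139 rows of the expression table. Poly(A)-selected RNA was sequenced from cultured marrow cells of mice, taken from Mx-Cre Dnmt3a-/- animals, called Dnmt3a KO here, and from Mx-Cre Dnmt3a+/+ animals, called WT. Dnmt3a encodes a de novo DNA methyltransferase, and Mx-Cre is an interferon-inducible recombinase that acts in blood cells and in other tissues, so that both genotypes carried the recombinase. All cells were kept for 1 week in RPMI with 10% fetal bovine serum, stem cell factor at 50 ng/ml and interleukin 3 at 10 ng/ml, cytokines that support mast cells and immature myeloid cells. Dnmt3a KO was measured in 2 libraries (replicates 2 and 3, with replicate 1 not analysed here) and WT in 3. One field of the labels calls the altered cells a knockdown, while their titles say KO. The sources used here do not give the animals' age, sex or strain, or whether marrow was pooled.

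In resting cells most NF-κB dimers are held in the cytoplasm by IκBα, IκBβ and IκBε, the products of Nfkbia, Nfkbib and Nfkbie. Signals from Toll-like, interleukin 1 and TNF receptors activate the IKK kinases, which mark these inhibitors for degradation and free the dimers to enter the nucleus. NF-κB then switches on its own inhibitors, above all Nfkbia and Tnfaip3, so that the response is brief. In mast cells, neutrophils and macrophages the pathway is known for its control of cytokine and chemokine genes.

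Levels are given in FPKM (fragments counted for a gene, divided by its length and by the size of the library), which allows genes to be compared within a library. Between libraries, FPKM were compared without further scaling, which does not allow for differences in the make-up of the RNA. For that reason 3 other scalings were among the alternatives. The depth of each library is unknown, because FPKM carry no read totals. FPKM summed to 603615 and 560387 in Dnmt3a KO replicates 2 and 3, and to between 585878 and 604368 in WT. Dnmt3a itself (gene 13435, chromosome 12) was at 2.58 and 3.42 FPKM in Dnmt3a KO, against 6.68, 9.99 and 9.04 FPKM in WT replicates 1, 2 and 3. The libraries were unbalanced in sex: both Dnmt3a KO libraries and WT replicate 1 had 13.0 to 14.8 FPKM of the Y-linked Ddx3y and at most 0.02 FPKM of the female-specific Xist, and WT replicates 2 and 3 had 14.4 and 15.3 FPKM of Xist. Nothing in the labels states that each replicate was its own animal or culture, so that the p-values reflect only how these libraries scatter, which may be technical. Genes were compared with limma on log2(FPKM + 1), a scale that understates the change of low genes, and called at a Benjamini-Hochberg adjusted p under 0.05 over the 11365 genes in which at least 2 libraries reached 1 FPKM. All 10 genes passed that filter. Of all tested genes, 22.1% were called.

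The promoters of the 2 classical IκB genes that passed the test below, Nfkbia downward and Nfkbie upward, and of Tnfaip3 are shown first, because NF-κB is known to bind near the start of its own inhibitor genes. Each runs from 250 bases before to 50 bases after the start site (RefSeq, GRCm38.p6), 5′ to 3′ on the strand of the gene, and capitals mark every match to the κB decamer consensus on either strand. The Nfkbia promoter lies at chr12:55492598-55492897 on the minus strand, the Nfkbie promoter at chr17:45555450-45555749 on the plus strand, and the upstream Tnfaip3 promoter at chr10:19015361-19015660 on the minus strand.
Nfkbia: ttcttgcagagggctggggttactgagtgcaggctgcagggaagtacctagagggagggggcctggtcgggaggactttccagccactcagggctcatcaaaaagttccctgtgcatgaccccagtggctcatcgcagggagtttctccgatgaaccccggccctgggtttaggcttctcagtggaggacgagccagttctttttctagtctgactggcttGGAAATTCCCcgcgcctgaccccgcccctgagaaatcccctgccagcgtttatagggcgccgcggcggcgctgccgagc
Nfkbie: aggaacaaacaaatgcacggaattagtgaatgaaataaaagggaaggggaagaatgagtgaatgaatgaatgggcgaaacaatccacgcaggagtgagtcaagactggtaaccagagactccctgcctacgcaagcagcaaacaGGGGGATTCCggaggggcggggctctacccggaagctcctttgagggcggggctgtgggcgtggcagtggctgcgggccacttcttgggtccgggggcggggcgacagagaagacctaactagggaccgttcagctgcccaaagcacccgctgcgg
Tnfaip3: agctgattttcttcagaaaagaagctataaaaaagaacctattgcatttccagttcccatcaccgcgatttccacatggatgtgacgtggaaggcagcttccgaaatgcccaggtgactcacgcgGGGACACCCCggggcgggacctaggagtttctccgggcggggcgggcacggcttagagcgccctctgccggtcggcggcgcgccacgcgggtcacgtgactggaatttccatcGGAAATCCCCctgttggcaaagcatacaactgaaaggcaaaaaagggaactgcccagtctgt

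The decamer in the Nfkbia promoter lay at bases -29 to -20 from the start site and read GGAAATTCCC. In the Nfkbie promoter it lay at -106 to -97 and read GGGGGATTCC. The upstream Tnfaip3 promoter held matches at -125 to -116 and at -12 to -3, while its second listed promoter, at chr10:19011914-19012213, held no match. The Rel promoter held GGGAAATCCC at -92 to -83, with a match to the other strand shifted by 1 base. The first of 3 listed Nfkb2 promoters held GGGAATTCCC at -39 to -30, again with an overlapping match shifted by 1 base, and GGGGCTTTCC at -11 to -2. The other two Nfkb2 windows held GGAATGTCCC and GGGACTTTCC, the last of which lies where those windows overlap. No match to these letters lay in the windows of Rela and Nfkbib, and Nfkb1, Relb and Nfkbiz had no promoter sequence here. In all, 5 of 7 genes with a promoter held a match, against 12.1% of the 8945 tested genes with one, counting any of a gene's promoters. A match is a description of the sequence and shows no binding. The same windows held 15 CpG dinucleotides in Nfkbia, 16 in Nfkbie, 22 in the upstream window of Tnfaip3 and 6 in its second window. Nfkbib held 20, Rela 31 and Rel 42, and the 3 Nfkb2 windows held 25, 20 and 20. The median over the promoters of tested genes was 20. DNA methylation was not among the measurements used here.

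Of the 10 genes, Nfkbiz and Nfkbie rose in Dnmt3a KO cells, Nfkbia fell, and the other seven did not pass the test. All 3 genes that passed encode proteins of the IκB family, of which that of Nfkbiz is a nuclear cofactor. The members' share of calls, 3 of 10, was close to the 22.1% of all tested genes, with 2 higher (9.08% of all tested genes) and 1 lower (13.0%). Higher genes made up 41.2% of all calls, and between 49.8% and 53.8% under the 3 other scalings of the libraries. The median log2 change of the 10 genes was 0.05, against -0.04 over all tested genes. Both Dnmt3a KO libraries lay above all WT libraries for 5 of the 10 genes and below all of them for 4, whereas 51.1% of all tested genes had groups that did not overlap (20.4% above and 30.8% below). In bulk RNA a lower level can come from fewer cells of a type or from less RNA per cell, and these cannot be told apart.

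**Figure D1:**
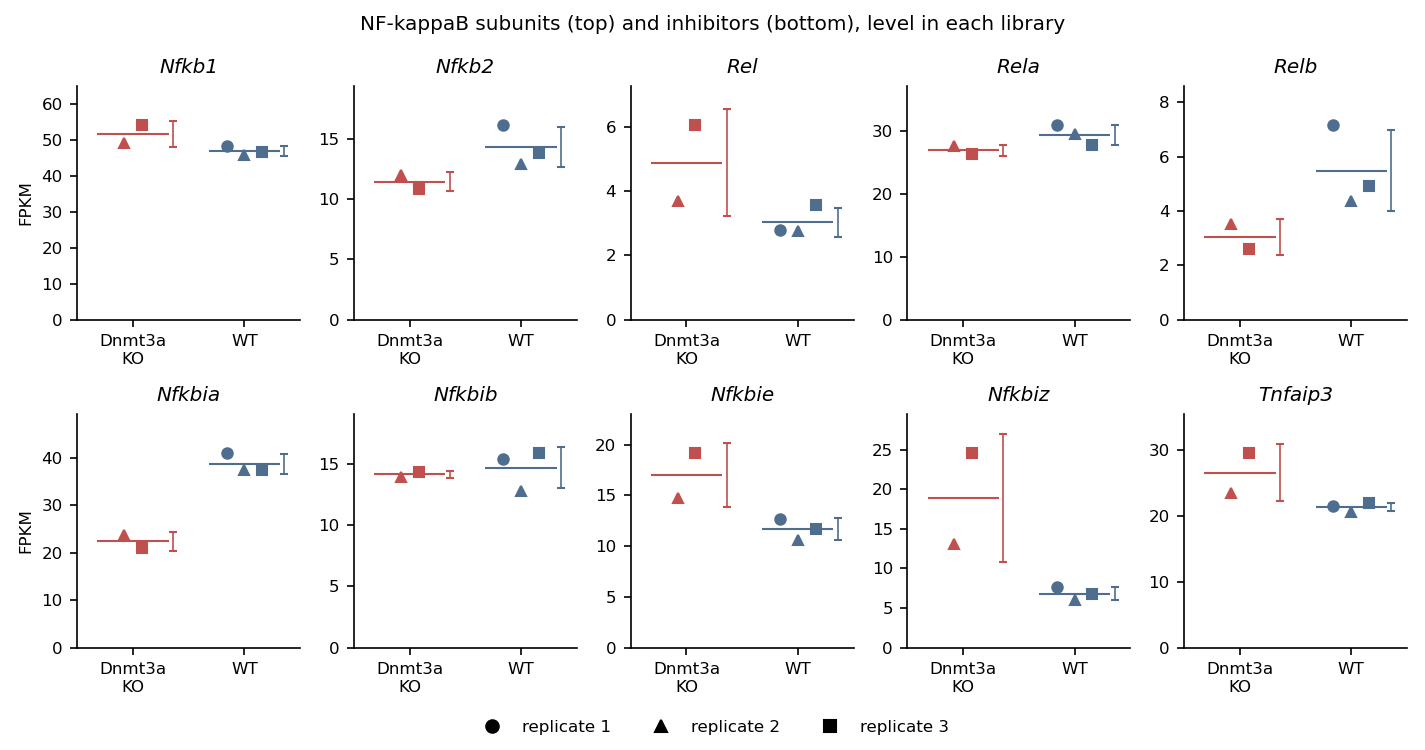
FPKM of each of the 10 genes (vertical axes, starting at 0) in the 2 Dnmt3a KO libraries (red) and the 3 WT libraries (blue), with the mean as a line, the SD as a bar beside it and the replicate number as the symbol. Nfkbia is lower in Dnmt3a KO (21.0 to 23.8 FPKM) than in WT (37.5 to 41.1 FPKM) without overlap, and by ratio Nfkbiz (1.88-fold) and Rel (1.63-fold) differ most between the 2 Dnmt3a KO libraries.

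Nfkbia (gene 18035, chromosome 12 from 55489410 to 55492647 in GRCm38), which encodes IκBα, the inhibitor that NF-κB resynthesizes fastest after a signal, was the member that fell. Its level was 23.8 and 21.0 FPKM in Dnmt3a KO replicates 2 and 3, against 41.1, 37.5 and 37.5 FPKM in WT replicates 1, 2 and 3. The groups were far apart and each was tight. The mean was 22.4 ± 1.97 FPKM (SD, n = 2) in Dnmt3a KO and 38.7 ± 2.08 FPKM (SD, n = 3) in WT, a log2 change of -0.76 ± 0.09 (standard error; limma adjusted p = 0.00122). Nfkbia passed under all 15 alternative settings, with log2 changes of -0.85 to -0.68 (-0.85 with sex as a covariate, adjusted p = 0.00771). In the authors' deposited table, whose test the sources used here do not name, its adjusted p was 0.317, and 2 of the 10 genes, Nfkbiz and Nfkbie, were under 0.05 there (6.09% of its rows were).

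Nfkbiz (gene 80859, chromosome 16 from 55811375 to 55838899), which encodes the nuclear protein IκBζ, a cofactor needed for a subset of secondary inflammatory genes such as interleukin 6, had the largest change of the 10. Its level was 13.1 and 24.6 FPKM in Dnmt3a KO replicates 2 and 3, against 7.61, 6.02 and 6.74 FPKM in WT replicates 1, 2 and 3. Every Dnmt3a KO value exceeded every WT value, but the 2 Dnmt3a KO libraries differed from each other by 1.88-fold, more than the 1.26-fold range within WT. The mean was 18.9 ± 8.12 FPKM (SD, n = 2) in Dnmt3a KO and 6.79 ± 0.796 FPKM (SD, n = 3) in WT, a log2 change of 1.29 ± 0.23 (standard error; limma adjusted p = 0.00801; adjusted p = 6.72e-08 in the authors' deposited table). Without Dnmt3a KO replicate 3 the log2 change was 0.86 (adjusted p = 0.0158). With sex as a covariate, a fit in which only WT replicate 1 serves as the WT side, it was 1.14 and did not pass (adjusted p = 0.0649).

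Nfkbie (gene 18037, chromosome 17 from 45555703 to 45563169) encodes IκBε, a cytoplasmic inhibitor that is also induced by NF-κB, with slower kinetics than IκBα. It was at 14.7 and 19.2 FPKM in Dnmt3a KO replicates 2 and 3, against 12.7, 10.6 and 11.7 FPKM in WT replicates 1, 2 and 3. The groups did not overlap, and the lower Dnmt3a KO value stood 2.06 FPKM above the highest WT value. The mean was 17.0 ± 3.15 FPKM (SD, n = 2) in Dnmt3a KO and 11.7 ± 1.07 FPKM (SD, n = 3) in WT, a log2 change of 0.50 ± 0.13 (standard error; limma adjusted p = 0.0319; adjusted p = 0.0400 in the authors' deposited table). This call was the least stable of the 3. It was lost without WT replicate 2 or 3 (adjusted p = 0.0968 and 0.0790), without Dnmt3a KO replicate 3 (0.136, log2 change 0.32), with sex as a covariate (0.228) and without the filter on low genes (0.0540).

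The other two inhibitor genes did not pass. Tnfaip3 (gene 21929, chromosome 10 from 19000910 to 19015657), whose product A20 shuts off signalling upstream of the IKK kinases, was at 23.5 and 29.6 FPKM in Dnmt3a KO replicates 2 and 3, against 21.6, 20.7 and 21.9 FPKM in WT. Both Dnmt3a KO libraries were above all WT libraries, by a log2 change of 0.29 (95% interval 0.04 to 0.54; limma adjusted p = 0.0959). It passed without Dnmt3a KO replicate 2 (0.45, adjusted p = 0.0131) and with upper-quartile scaling (0.37, 0.0496), and its log2 change was 0.13 without Dnmt3a KO replicate 3 (adjusted p = 0.324). Nfkbib (gene 18036, chromosome 7 from 28758251 to 28767512), which encodes IκBβ, an inhibitor that NF-κB induces little, was at 13.9 and 14.4 FPKM in Dnmt3a KO and at 15.4, 12.8 and 15.9 FPKM in WT. Its groups overlapped, and the log2 change was -0.04 (95% interval -0.30 to 0.21). Nfkbib overlaps Sirt2 and Ccer2 on the other strand, and Nfkb2 overlaps Psd likewise. The sources used here do not say whether the libraries kept strand, so that the levels of Nfkbib and Nfkb2 are uncertain. Nfkb1 overlaps the gene model Gm43430 on its own strand, which leaves its level uncertain as well.

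**Figure D2:**
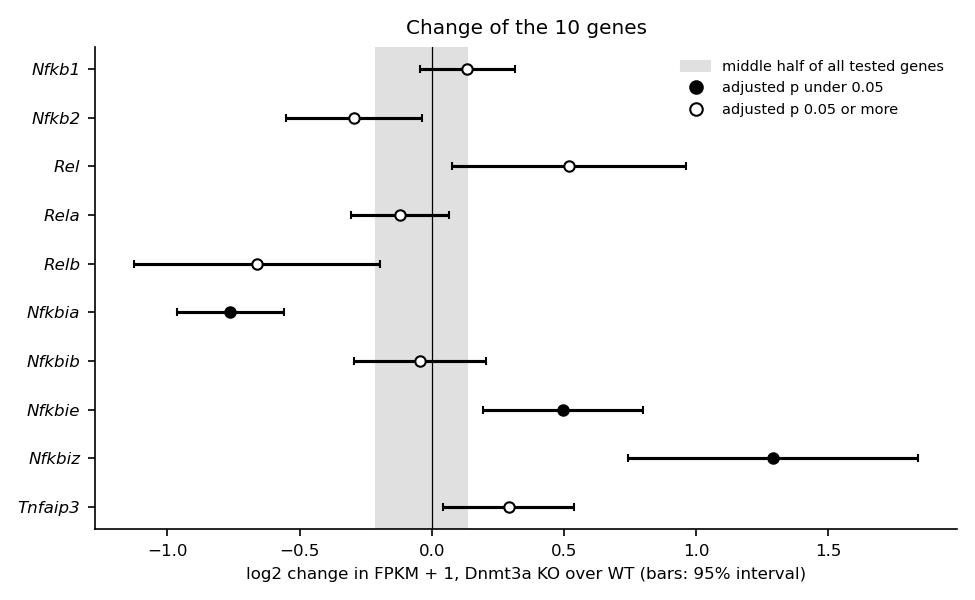
Log2 change in FPKM + 1, Dnmt3a KO over WT, of each of the 10 genes (points) with its 95% interval from limma (bars); filled points passed the adjusted p of 0.05 and the grey band is the interquartile range of all tested genes. Nfkbia (-0.76), Nfkbie (0.50) and Nfkbiz (1.29) are filled, and the intervals of Nfkb1, Rela and Nfkbib cross 0.

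None of the 5 subunit genes passed. Nfkb1 and Rela encode the parts of the most common dimer, and both were close to their WT level. Nfkb1 (gene 18033, chromosome 3 from 135584655 to 135691547) was at 49.1 and 54.2 FPKM in Dnmt3a KO replicates 2 and 3, against 48.4, 45.7 and 46.5 FPKM in WT replicates 1, 2 and 3. The log2 change was 0.13 (95% interval -0.04 to 0.31; limma adjusted p = 0.255). Rela (gene 19697, chromosome 19 from 5637483 to 5648130), which carries the transactivation domain of that dimer, was at 27.6 and 26.4 FPKM in Dnmt3a KO, against 31.0, 29.5 and 27.8 FPKM in WT. The log2 change was -0.12 (95% interval -0.30 to 0.06; limma adjusted p = 0.325). For both genes the groups did not overlap, but the gap between them was 0.22 FPKM for Rela and 0.67 FPKM for Nfkb1.

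Nfkb2 and Relb encode the partners of the alternative pathway, in which the kinase NIK triggers processing of the Nfkb2 precursor, and both were lower in each Dnmt3a KO library than in every WT library without passing. Relb (gene 19698, chromosome 7 from 19606217 to 19629438) was at 3.52 and 2.59 FPKM in Dnmt3a KO replicates 2 and 3, against 7.16, 4.35 and 4.93 FPKM in WT replicates 1, 2 and 3. WT replicate 1 stood above the other two WT libraries. The log2 change was -0.66 ± 0.20 (SE; 95% interval -1.13 to -0.20; limma adjusted p = 0.0522). It passed with sex as a covariate (-1.02, adjusted p = 0.0181), without WT replicate 2 (-0.79, 0.0444), with a pseudocount of 0.1 (-0.81, 0.0495) and with robust variances (0.0482). Nfkb2 (gene 18034, chromosome 19 from 46304320 to 46312385) was at 12.0 and 10.9 FPKM in Dnmt3a KO, against 16.1, 12.9 and 13.8 FPKM in WT. The log2 change was -0.29 (95% interval -0.55 to -0.03; limma adjusted p = 0.104), and it passed under none of the 15 alternatives.

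Rel (gene 19696, chromosome 11 from 23736847 to 23770970) encodes c-Rel, a subunit known mainly from lymphocytes and activated myeloid cells. It was at 3.71 and 6.06 FPKM in Dnmt3a KO replicates 2 and 3, against 2.78, 2.77 and 3.56 FPKM in WT replicates 1, 2 and 3. Dnmt3a KO replicate 2 lay just above the highest WT library, while replicate 3 was 1.63-fold higher than replicate 2. The log2 change was 0.52 ± 0.19 (SE; 95% interval 0.08 to 0.96; limma adjusted p = 0.0945). It passed without Dnmt3a KO replicate 2 (0.81, adjusted p = 0.0211) and was 0.23 without replicate 3 (0.417).

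The 2 Dnmt3a KO libraries thus differed from each other in several of these genes. Nfkbiz was 1.88-fold, Rel 1.63-fold, Nfkbie 1.30-fold and Tnfaip3 1.26-fold higher in Dnmt3a KO replicate 3 than in replicate 2. Relb was lower in replicate 3, at 0.736 of its level in replicate 2, and Nfkbia at 0.883. Over all tested genes, 3.46% were at least 1.5-fold higher in replicate 3 than in replicate 2.

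Because FPKM are per length, the levels of the 10 genes can be ordered. In Dnmt3a KO the order of mean FPKM was Nfkb1 (51.6), Rela (27.0), Tnfaip3 (26.6), Nfkbia (22.4), Nfkbiz (18.9), Nfkbie (17.0), Nfkbib (14.1), Nfkb2 (11.4), Rel (4.89) and Relb (3.06). The ranges of each pair of neighbours from Rela down to Nfkbie overlapped, so that neighbours there did not differ beyond their spread, while genes further apart did not all overlap (Rela was above Nfkbia, Nfkbiz and Nfkbie in both libraries). In WT the order was Nfkb1 (46.9), Nfkbia (38.7), Rela (29.4), Tnfaip3 (21.4), Nfkbib (14.7), Nfkb2 (14.3), Nfkbie (11.7), Nfkbiz (6.79), Relb (5.48) and Rel (3.04). There the ranges of neighbours overlapped for Nfkbib with Nfkb2 and for Nfkbiz with Relb. Within each WT library, however, Nfkbiz was above Relb, while Nfkbib and Nfkb2 changed places between libraries. By rank of the mean, Nfkbia thus stood at 4 in Dnmt3a KO and at 2 in WT, and Nfkbiz at 5 in Dnmt3a KO and at 8 in WT. The Dnmt3a KO libraries did not share these places. In replicate 2 Nfkbiz (13.1 FPKM) was below Nfkbie (14.7 FPKM) and Nfkbib (13.9 FPKM). In replicate 3 Nfkbiz (24.6 FPKM) was above both and above Nfkbia (21.0 FPKM).

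The summed level of each class moved little while its make-up moved more. The 5 subunit genes summed to 95.9 and 100.1 FPKM in Dnmt3a KO, against 105, 95.2 and 96.6 FPKM in WT. The 5 inhibitor genes summed to 89.1 and 109 FPKM in Dnmt3a KO, against 98.3, 87.5 and 93.8 FPKM in WT. That sum includes Nfkbiz, whose product is nuclear, and Tnfaip3, which is not an IκB gene. It is therefore not the level of the cytoplasmic inhibitors Nfkbia, Nfkbib and Nfkbie, whose own sum was not compared. Within the inhibitor sum, Nfkbia made up 26.7% and 19.3% in Dnmt3a KO, against 41.8%, 42.8% and 40.0% in WT. Nfkbiz made up 14.7% and 22.6% in Dnmt3a KO, against 7.74%, 6.88% and 7.18% in WT. The share of Nfkb1 in the subunit sum was 51.2% and 54.1% in Dnmt3a KO, against 45.9%, 48.0% and 48.1% in WT. Per library, the ratio of Nfkbia to Rela was 0.864 and 0.798 in Dnmt3a KO, against 1.33, 1.27 and 1.35 in WT. The ratio of Rel to Relb was 1.05 and 2.34 in Dnmt3a KO, against 0.388, 0.637 and 0.722 in WT. These shares and ratios are descriptions, since 2 libraries against 3 cannot give an exact permutation p under 0.1.

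**Figure D3:**
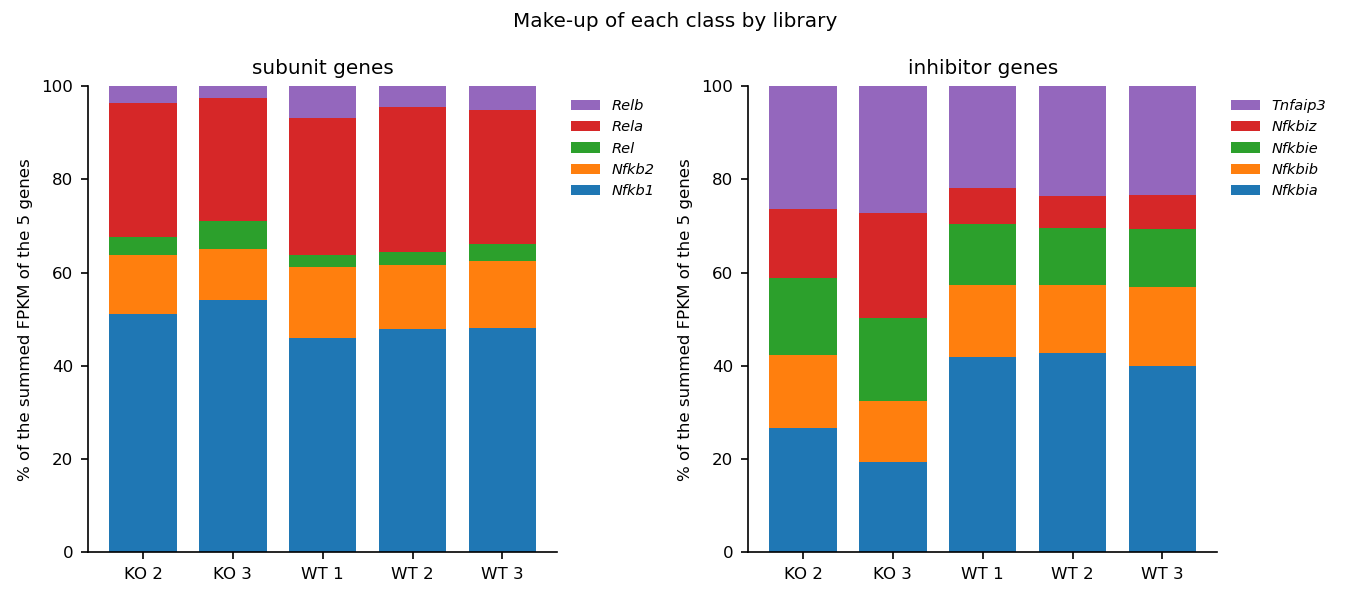
Share of each gene in the summed FPKM of the 5 subunit genes (left) and of the 5 inhibitor genes (right), in % from 0 to 100, for Dnmt3a KO replicates 2 and 3 and WT replicates 1 to 3. The Nfkbia segment takes 19.3% to 26.7% of the inhibitor sum in Dnmt3a KO and 40.0% to 42.8% in WT, and the Nfkbiz segment is wider in both Dnmt3a KO bars.

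Genes around these 10 were described from lists of the pathway. Of 12 genes of other IκB proteins, A20 partners and further regulators such as Zfp36, 2 rose and 2 fell (33.3% called, against 22.1% of all tested genes). Their median log2 change was 0.09. Only 1 rose without WT replicate 2 or 3, 3 rose without Dnmt3a KO replicate 2 and 0 rose with sex as a covariate, while 2 fell in each case. Nfkbid, which encodes the nuclear IκBNS, rose with Nfkbiz: it was at 47.4 and 90.5 FPKM in Dnmt3a KO, against 22.2, 17.0 and 27.6 FPKM in WT, a log2 change of 1.54 ± 0.28 (limma adjusted p = 0.00860). Bcl3, the other nuclear IκB gene measured, fell, with 3.76 and 3.31 FPKM in Dnmt3a KO, against 12.0, 11.5 and 9.26 FPKM in WT, a log2 change of -1.39 ± 0.13 (adjusted p = 0.000586). The nuclear IκB genes therefore did not move one way: Nfkbiz and Nfkbid rose, and Bcl3 fell. Tnip3, which encodes an A20-binding protein, fell to 2.37 and 1.33 FPKM in Dnmt3a KO, against 8.26, 7.53 and 7.02 FPKM in WT (log2 change -1.62 ± 0.17, adjusted p = 0.000869). Zfp36, whose product degrades cytokine mRNAs, rose by a log2 change of 0.50 ± 0.11 (adjusted p = 0.0185; 0.32 and 0.0290 without Dnmt3a KO replicate 3). The A20 partner Tax1bp1 (0.17, adjusted p = 0.205; 0.0482 without Dnmt3a KO replicate 2) and the linear-ubiquitin protease gene Otulin (-0.05, 0.832) did not pass. With sex as a covariate Nfkbid (adjusted p = 0.0544) and Zfp36 (0.0849) lost their calls, and Zfp36 also without WT replicate 2 (0.0574) or 3 (0.0514).

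Of 13 genes of the IKK complex and the kinases above it, 1 rose and 3 fell (30.8% called; median log2 change 0.04); 2 rose and 2 fell without WT replicate 3. Map3k7, which encodes the IKK-activating kinase TAK1, rose to 24.4 and 26.1 FPKM in Dnmt3a KO, against 16.4, 16.7 and 17.4 FPKM in WT (log2 change 0.56 ± 0.08, limma adjusted p = 0.00254). Ikbke, a non-canonical IKK of antiviral signalling, fell to 9.55 and 9.70 FPKM in Dnmt3a KO, against 21.5, 19.7 and 18.0 FPKM in WT (-0.96 ± 0.09, adjusted p = 0.000735). Map3k1 fell by 0.83 on the log2 scale (adjusted p = 0.00157). Ikbkb, the catalytic IKKβ, fell by 0.26 on the log2 scale (adjusted p = 0.0340), but its call was lost under 10 of the 15 alternatives, among them without WT replicate 1, 2 or 3 (0.0961, 0.107 and 0.129) or Dnmt3a KO replicate 3 (0.0584). The TAK1 adaptor gene Tab2 (0.13, adjusted p = 0.259) and Map3k3 (-0.14, 0.527; -0.37 and 0.0359 without Dnmt3a KO replicate 3) did not pass.

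Of 23 adaptor and ubiquitin ligase genes, 1 rose and 3 fell (17.4% called, under the 22.1% of all tested genes; median log2 change -0.14). Without Dnmt3a KO replicate 2 the counts were 3 higher and 3 lower, without Dnmt3a KO replicate 3 they were 1 and 4, and with sex as a covariate 0 rose and 2 fell. Traf1, an NF-κB-induced adaptor of TNF receptors, rose to 7.75 and 10.95 FPKM in Dnmt3a KO, against 4.78, 5.05 and 4.03 FPKM in WT (log2 change 0.87 ± 0.15, limma adjusted p = 0.00770; 0.0597 with sex as a covariate). Card9, an adaptor of myeloid lectin receptors, fell by 0.81 on the log2 scale (adjusted p = 0.00372), and Myd88, the adaptor of Toll-like and interleukin 1 receptors, by 0.41 (0.00605). Irak3, a brake on that pathway, fell by 0.37 on the log2 scale (adjusted p = 0.0325) and lost its call under 8 of the 15 alternatives, among them without WT replicate 1, 2 or 3 (0.0504, 0.0930 and 0.108) or Dnmt3a KO replicate 2 (0.0886). Rbck1 (0.05, adjusted p = 0.611) and Bcl10 (-0.16, 0.260) did not pass.

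Of 34 tested textbook target genes of NF-κB, 9 rose and 12 fell (61.8% called, against 22.1% of all tested genes). Their median log2 change was -0.06 (0.014 with upper-quartile scaling and -0.18 with sex as a covariate). The targets therefore changed in both directions. Without Dnmt3a KO replicate 3 or with sex as a covariate, 4 rose, and 9 and 8 fell. Saa3, an acute-phase gene, fell to 26.9 and 19.3 FPKM in Dnmt3a KO, against 199, 156 and 144 FPKM in WT (log2 change -2.80 ± 0.17, limma adjusted p = 0.000236). The chemokine gene Ccl22 (log2 change -1.86, adjusted p = 0.00866; -1.18 and 0.00372 without Dnmt3a KO replicate 3), the dendritic cell gene Cd83 (-1.38, 0.00179) and the survival gene Bcl2a1d (-1.73, 0.00504) also fell. Reads of Bcl2a1d can be shared with its near-identical paralogs, so that its level is uncertain. Il2ra, the α chain of the interleukin 2 receptor, rose to 9.73 and 13.1 FPKM in Dnmt3a KO, against 5.90, 2.50 and 2.69 FPKM in WT (log2 change 1.46 ± 0.29, adjusted p = 0.0124; 0.0879 without Dnmt3a KO replicate 3; log2 change 0.83 with sex as a covariate). The chemokine gene Ccl3 (0.37, adjusted p = 0.122; 0.0477 without WT replicate 3) and Slc2a6 (-0.04, 0.855) did not pass. The call of Ccl22 was lost with sex as a covariate (adjusted p = 0.0586).

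**Figure D4:**
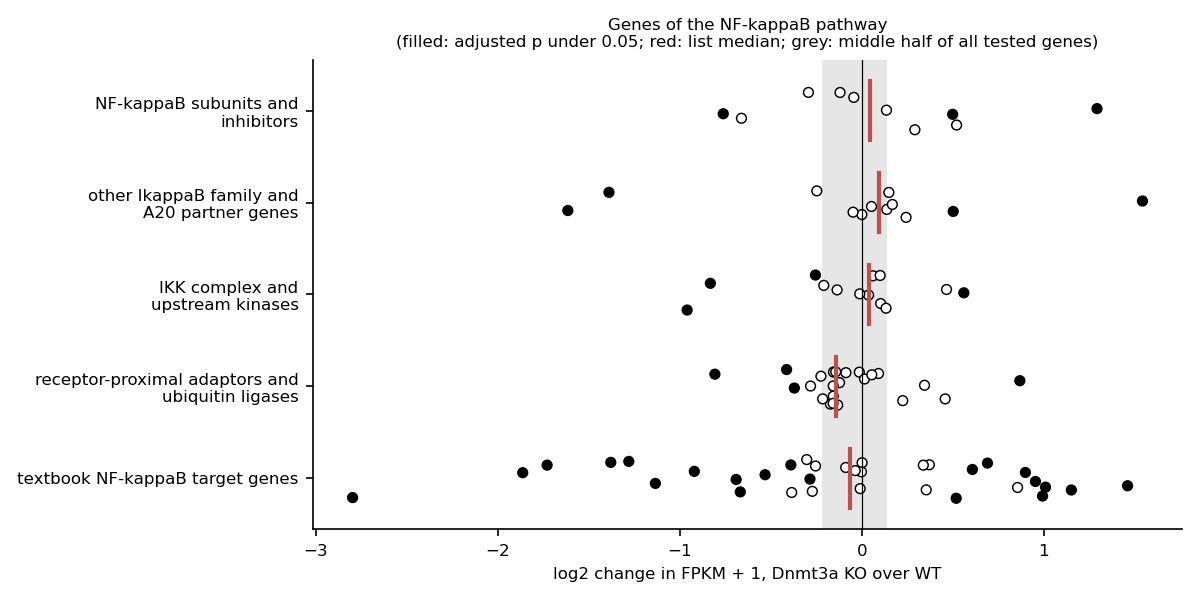
Log2 change in FPKM + 1, Dnmt3a KO over WT, of each tested gene (points, jittered vertically) in the 10-gene set and in 4 lists of the NF-κB pathway; filled points passed the adjusted p of 0.05, red lines are list medians and the grey band is the interquartile range of all tested genes. The list medians lie between -0.14 and 0.09, and the target genes spread from -2.80 to 1.46.

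Markers of the cell types in the culture moved with genotype as well. Of 18 macrophage and monocyte markers, 15 fell and 1 rose, and their summed level was 2981 to 3289 FPKM in Dnmt3a KO, against 7426 to 9287 FPKM in WT. Ctss, Trem2 and Lyz2 were the largest of these falls (log2 changes of -2.13, -2.10 and -1.89). Of 8 dendritic cell and MHC class II markers, 6 were tested and all 6 fell, led by H2-Aa (-3.30). The sum was 155 to 311 FPKM in Dnmt3a KO and 1590 to 2170 FPKM in WT. The dendritic cell markers Flt3 and Zbtb46 were under 1 FPKM in every library and were not tested. Of 14 neutrophil markers, 10 fell and none rose (sum 12994 to 16798 FPKM in Dnmt3a KO, 22583 to 33235 FPKM in WT), led by Elane (-2.23), and 4 fell without WT replicate 2 and 6 without Dnmt3a KO replicate 3. Of 16 mast cell and basophil markers, 11 rose and none fell (sum 33313 to 37835 FPKM in Dnmt3a KO, 17562 to 19915 FPKM in WT), led by Cpa3 (1.39). Of 15 lymphocyte markers 2 were tested, 6 more were under 1 FPKM in every library, and the sum was 39.3 to 44.1 FPKM in Dnmt3a KO and 58.4 to 71.4 FPKM in WT. The part of these shifts in the changes of Nfkbia, Nfkbie, Nfkbiz and their neighbours was not tested.

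**Figure D5:**
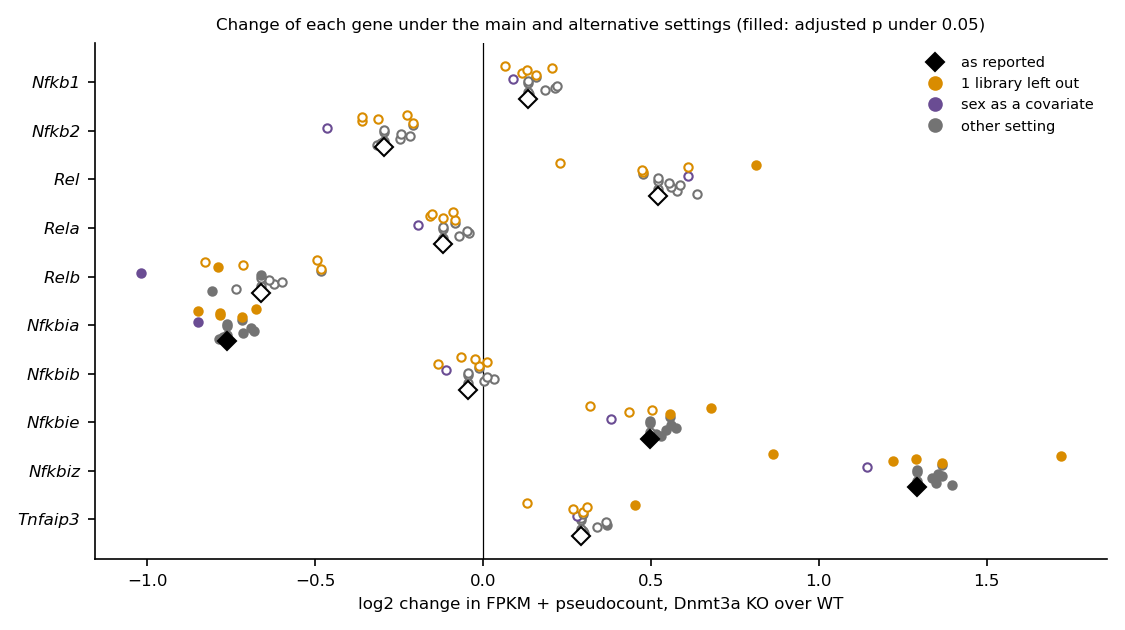
Log2 change, Dnmt3a KO over WT, of each of the 10 genes as reported (black diamonds) and under 15 alternative settings (circles; orange with 1 library left out, purple with sex as a covariate, grey otherwise); filled symbols passed the adjusted p of 0.05. Nfkbia is filled throughout, Nfkbiz in 14 of 15 alternatives and Nfkbie in 10 of 15, and no circle of these 3 genes crosses 0.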

How the data were processed

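Values for 2 Dnmt3a KO and 3 WT libraries came from 1 table of FPKM that the authors deposited, rounded to 2 decimals, per the file headers. Per the submitters' processing notes, the tools were edgeR, HISAT and StringTie 1.2.1 and the build was mm10, in no stated role or order; how reads were counted is not given there. The authors also deposited an adjusted p-value per gene, copied where so named. The titles gave the groups.

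Genes were fitted with limma 3.58.1 in R 4.3.3 on log2(FPKM + 1), using a mean-variance trend and only genotype as a term, which left 3 residual degrees of freedom. The fit, tested on simulated data, covered 11365 of 15139 rows. Gene positions came from GENCODE (GRCm38, equal to mm10) and promoters from RefSeq. The 10 genes and all lists were chosen with earlier results of these data known. Of each pathway list, up to 5 called genes with the largest change and 2 uncalled genes with the highest level were named, and of each cell type list up to 3. Some further called target genes with smaller changes were added. Low values did not allow depth to be derived, so that counting error is unknown.

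Alternatives were other pseudocounts, scalings, variance models and filters, sex or replicate number as a term, and each library left out.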

Additional observations from a re-analysis of the deposited data

How the results depend on the processing

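Of the 10 genes, 2 rose and 1 fell as reported. Those counts were 2 higher and 2 lower with a pseudocount of 0.1 and with robust variances, 1 higher and 1 lower without the filter on low genes, 3 higher and 1 lower with upper-quartile factors, and 0 higher and 2 lower with sex as a covariate. With 1 library left out they ran from 1 to 4 higher and from 1 to 2 lower, and the calls over all genes from 1623 (without WT replicate 2) to 2659, against 2507 as reported and 1312 with sex as a covariate. Where a Dnmt3a KO library was left out, the lone one was assumed to vary like WT. Nfkbib changed sign with median-of-ratios factors (0.0018), upper-quartile factors (0.032) and quantile normalization (0.011), and ran from -0.14 to 0.013 with 1 library left out. Otulin did so with upper-quartile factors (0.031) and quantile normalization (0.028), and ran from -0.25 to 0.16 with 1 library left out, while Map3k3 ran from -0.37 to 0.10. Slc2a6 did so with median-of-ratios factors (0.012), upper-quartile factors (0.044), quantile normalization (0.051) and the replicate block (0.049), and ran from -0.12 to 0.051 with 1 library left out. None of these genes was called as reported, and the cause was not tested. Replicate numbers 2 and 3 occur in both groups but are not said to pair samples, and the difference between them in Dnmt3a KO and in WT correlated at 0.042 across genes. With the replicate number as a block, 2 of the 10 genes were higher, 1 was lower and 2058 genes were called in all. Replicate 1 was analysed only in WT, so that this block takes up WT replicate 1. The log2 changes of the 10 genes were therefore the same as without that library (-0.72 for Nfkbia and 1.37 for Nfkbiz in both fits). The unknown depth limits what can be said of Rel and Relb, which had the lowest levels.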

Other observations

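For each of the 10 genes, the tested gene with the closest profile over the 5 libraries was taken, by the root mean square difference of centred log2(FPKM + 1) values. For Nfkbiz it was Gbp6, an interferon-induced GTPase gene, at 6.0 and 11.1 FPKM in Dnmt3a KO replicates 2 and 3, against 2.92, 2.42 and 2.81 FPKM in WT (difference 0.046, where the spread of Nfkbiz itself was 0.695). For Rel it was Fosl1, a gene of the AP-1 family, at 4.16 and 6.74 FPKM in Dnmt3a KO, against 3.31, 3.16 and 4.22 FPKM in WT (0.028, against 0.330). For Nfkbie it was Crot (0.033, against 0.280), for Tnfaip3 Mbd6 (0.012, against 0.177) and for Nfkb2 Cln6 (0.020, against 0.179). For Nfkbia it was P2ry12, at 0.51 and 0.41 FPKM in Dnmt3a KO, against 1.59, 1.35 and 1.48 FPKM in WT (0.035, against 0.380). With 5 libraries and 11365 genes, close profiles can occur without any link between the genes. How often they do was not measured, and the likeness is a description.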
